A study of Mus musculus with 24 samples.

Results

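Gene expression was compared between MC38 cells treated with TNF plus RG6146 and MC38 cells treated with DMSO, in 3 libraries each, which are 6 of the 24 libraries of the study. All genes of the count table were considered, 43629 in all, and 13272 had enough counts in the MC38 libraries to be tested. MC38 is a mouse line from a colon adenocarcinoma. The DMSO group received the solvent alone, and the other group, called the combination here, received 10 ng/mL recombinant murine TNF together with 2.5 µM RG6146, in both cases for 3 h. MC38 groups of 3 libraries with TNF alone or RG6146 alone, at the same doses and time, entered the same fit and are given beside the combination. The sample labels name no engineered allele, but the growth protocol names MC38-Ova cells, and it does so for every sample, those of the breast adenocarcinoma line E0771 included. All MC38 results come from 1 line at 1 time in culture. The labels do not say whether replicates are separate cultures. The p-values therefore rest on the spread among these libraries, which may be technical.

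TNF is a cytokine that binds receptors on the cell surface and, through adaptor proteins and ubiquitin ligases, activates the kinase IKK. IKK marks the inhibitor IkB-alpha, the product of Nfkbia, for degradation, and NF-kB dimers then enter the nucleus and start genes for chemokines, survival proteins and the NF-kB inhibitors themselves. The same receptors can start cell death when the survival genes are not made. BET proteins such as Brd2 bind acetylated histones through their bromodomains and help P-TEFb, the kinase that releases paused RNA polymerase, to reach genes. RG6146 blocks BET bromodomains.

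Libraries held 3′ tags of polyadenylated RNA, between 5392808 and 9673118 counts in the 12 MC38 libraries. Combination replicate 2 stood apart by leukocyte transcripts. Its summed level of the 11 neutrophil and granulocyte markers was 2721 CPM (counts relative to the library size after TMM scaling), against 27.9 and 3.64 CPM in the other 2 combination libraries and 20.1 to 43.2 CPM in the DMSO libraries. The 12 pan-leukocyte markers summed to 222 CPM there and to between 1.69 and 13.8 CPM in the remaining 11 libraries, and T and NK cell markers (149 against 1.73 to 12.9 CPM) and macrophage and monocyte markers (120 against 4.52 to 8.89 CPM) were high in it too. At lower levels, erythroid markers (15.0 against 0.677 to 2.99 CPM) and epithelial markers (8.82 against 0.483 to 1.71 CPM) were also highest in it. The same held for the B cell and endothelial sums. C1qa, C1qb, C1qc, Trac and Cd79a were at 0 in all 12 libraries. DMSO replicate 2 had 0.609% of its counts in the mitochondrial ribosomal RNA genes, against 1.69 to 3.23% in the other 11 libraries. Against the label of a colon carcinoma, none of 15 epithelial markers had enough counts to be tested. Cdx2, Cldn3, Cldn4, Krt20 and Krt7 were at 0 throughout, whereas the 11 fibroblast markers summed to 1397 to 1925 CPM. Of the 5 fibroblast markers tested 2 were lower with the combination, beside 5.46% of all tested genes. In RNA from whole cultures, fewer cells of a type and less RNA per cell cannot be told apart. Gene and list results of the combination against DMSO were also computed without combination replicate 2. Differences of single genes and lists from TNF alone or RG6146 alone are given with all libraries.

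**Figure D1:**
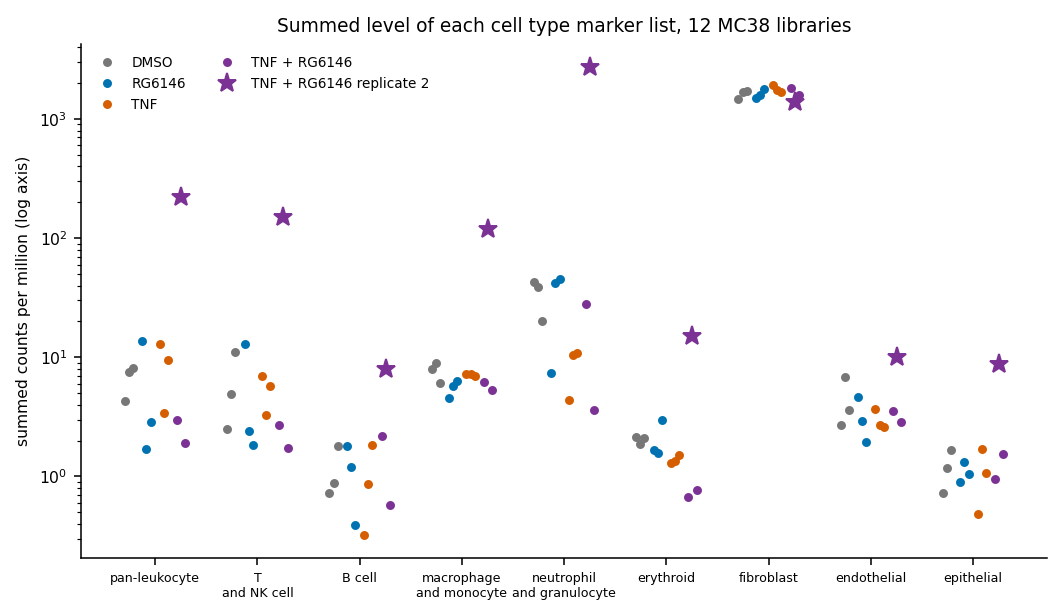
Summed level of 9 cell type marker lists in each of the 12 MC38 libraries, in CPM on a log axis, with combination replicate 2 drawn as a star. The star lies far above all other libraries for the neutrophil, pan-leukocyte, T and NK cell and macrophage lists, and below them for the fibroblast list. It is also the highest, at lower levels, for the B cell, erythroid, endothelial and epithelial lists.

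The combination changed 1247 of the 13272 tested genes, 9.4% (edgeR quasi-likelihood F test, Benjamini-Hochberg adjusted p under 0.05, which is what called means here). Of these, 522 rose (3.93% of those tested) and 725 fell (5.46%), and 197 of the higher and 359 of the lower genes moved at least 2-fold. In 1238 of the 1247 the 3 combination libraries did not overlap the 3 DMSO libraries. By comparison, over all tested genes the groups did not overlap, with the combination higher, in 13.1% and, with it lower, in 15.3%. The split depended on the scaling and the filter. With library totals in place of TMM, 415 rose and 1001 fell and the median log2 difference of all genes moved from -0.01 to -0.09, whereas with no filter on low counts 1010 rose and 793 fell. Without combination replicate 2, 772 of 13492 genes were called (5.72%), 320 higher (2.37%) and 452 lower (3.35%), and 721 of them were among the 1247 with the same direction. Leaving out DMSO replicate 2 as well gave 592 called genes (4.45%), 209 higher (1.57%) and 383 lower (2.88%). The strand setting of the counts is not given in the sources used here, so reads of a gene and of one with an exon on the opposite strand cannot be told apart. Among the genes below with such a neighbour are Nfkbib, Nfkb2, Cxcl10, Ereg, Pim1, Gadd45a, Vcam1, Icam1, Junb, Jund, Csrnp1, Dusp8, Dusp1, Zfp36, Hist3h2a, Txnip, Brd2, Ccnt1, Ell2, Sox4, Meis1, Runx1, Hoxa7, Hoxa4, Irs1, Gas1, Bhlhe41, Dio2, Kcnk2, Pdgfra, Ddit3, Irf1, Cd274, Cdkn1a, Cdk6 and Tnfaip2.

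**Figure D2:**
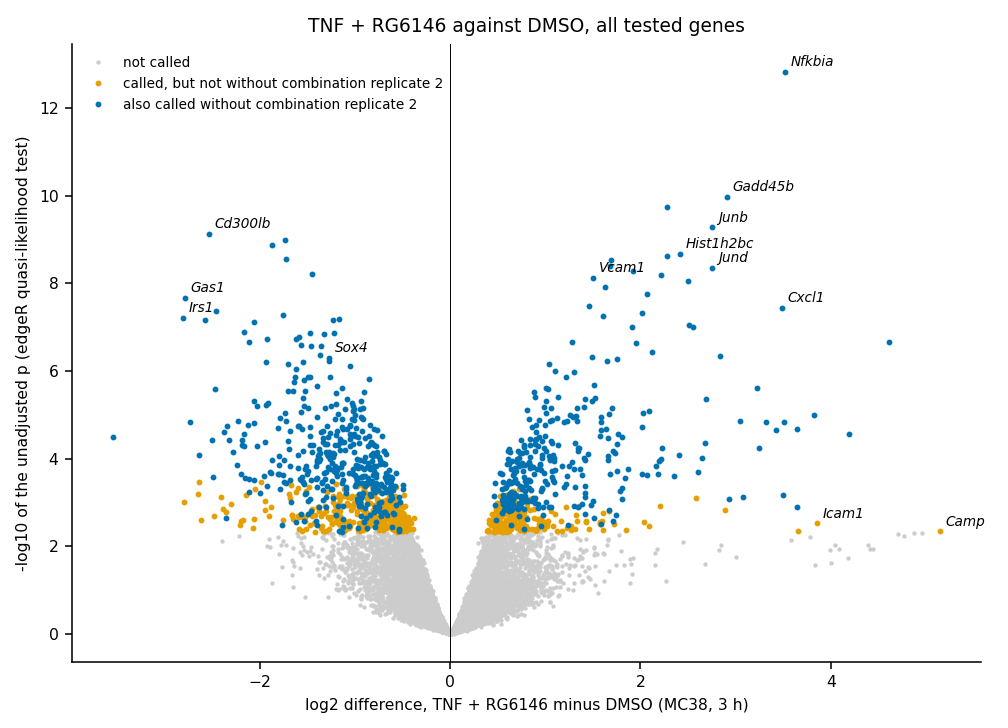
Log2 difference of the combination from DMSO for each tested gene (x axis) against -log10 of its unadjusted p (y axis). Grey genes were not called, orange genes were called only with combination replicate 2 included and blue genes also without it. Nfkbia, Cxcl1 and Gadd45b lie at the upper right, and Irs1, Gas1 and Cd300lb at the upper left.

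Genes that hold NF-kB in check were among those that rose. Of the 15 tested members of a list of NF-kB inhibitors and feedback regulators, 4 rose and none fell, with and without combination replicate 2. The list's median log2 difference was 0.44 against -0.01 over all tested genes, of which 3.93% rose and 5.46% fell. Nfkbia, at chr12:55489410-55492647 in GENCODE vM21 on GRCm38, gave 283, 279.9 and 231 CPM in the DMSO libraries and 3016, 2715 and 3354 CPM in the combination libraries. No library of one group came near the other, and the log2 difference was 3.52 ± 0.13 (SE, adjusted p = 1.96e-09), a 11.4-fold rise. Nfkbie, which encodes the related inhibitor IkB-epsilon, rose from 5.22, 4.74 and 6.04 to 28.6, 23.6 and 25.5 CPM (log2 difference 2.28 ± 0.17, adjusted p = 3.52e-06). Nfkbib, a further IkB gene, rose by 0.79 (adjusted p = 0.00895), and Tnip1, which encodes a partner of the ubiquitin editor A20, by 0.91 (adjusted p = 0.00592). Tnfaip3, the gene for A20, was not called. It had 0.360, 0.198 and 0.302 CPM with DMSO, 1.90, 1.71 and 0.958 CPM with the combination and 17.9, 6.49 and 4.10 CPM with TNF alone. All 3 combination libraries lay above the DMSO libraries and below the TNF libraries, and the difference from TNF alone was called (-2.58 ± 0.52, adjusted p = 0.00634), while that from DMSO gave 2.45 ± 0.79 (adjusted p = 0.0688).

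Promoter stretches are shown for 4 of the called genes that TNF alone also raised, because NF-kB is known to act through sites that read GGG, then 3 bases of any kind, then TTCC. Capitals mark matches to these letters on either strand, and overlapping matches form 1 run. The stretches are from RefSeq on GRCm38.p6 and read 5′ to 3′ along the gene.
Nfkbia (chr12:55492648-55492696, minus strand): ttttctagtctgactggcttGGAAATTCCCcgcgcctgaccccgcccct
Nfkbie (chr17:45555574-45555623, plus strand): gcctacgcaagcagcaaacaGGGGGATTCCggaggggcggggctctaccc
Cxcl1 (chr5:90891136-90891204, plus strand): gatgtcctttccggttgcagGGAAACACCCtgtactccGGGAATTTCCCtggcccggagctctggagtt
Cxcl10 (chr5:92348964-92349068, minus strand): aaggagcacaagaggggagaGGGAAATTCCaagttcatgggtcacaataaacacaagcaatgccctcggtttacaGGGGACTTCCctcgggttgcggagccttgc
The window searched ran from 250 bases before to 50 bases after each gene's start. It held a match in 7.23% of the 8785 tested genes with a window, in 8.23% of 389 called higher and in 6.58% of 532 called lower, and in 5.56% of all 32851 windows. The windows of Birc2, Birc3, Traf1, Fas and Irf1 hold no match, and both windows of Tnfaip3 do. A match describes letters in a window and says nothing about binding in these cells, and the motif was chosen with these sequences in view.

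Genes of the NF-kB subunits rose in part. Of 5 tested subunit genes 3 rose and none fell, and 2 rose without combination replicate 2, with a median of 0.66. Relb had 28.1, 30.9 and 21.3 CPM with DMSO and 66.1, 58.3 and 73.8 CPM with the combination, with no overlap between the groups, and its log2 difference was 1.30 ± 0.16 (adjusted p = 2.11e-04). Rel (1.498 ± 0.36, adjusted p = 0.0179) and Rela (0.54 ± 0.13, adjusted p = 0.0191) were the other members called. Rel lost its call without combination replicate 1 and in a fit of the 6 libraries alone (adjusted p 0.0609 to 0.0794). Rela lost its call without combination replicate 1 or 2 or DMSO replicate 1 (adjusted p 0.0619 to 0.0856). Nfkb1 (0.66 ± 0.29) and Nfkb2 (0.41 ± 0.16) were not called. None of 24 tested genes of the TNF receptor complex, which carries the signal from the receptor to IKK and to caspases, was called. For comparison, 9.4% of all tested genes were called, 3.93% higher and 5.46% lower.

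Genes of secreted signals rose in part. Of 18 listed chemokine genes 6 had enough counts, and 3 of these rose, with and without combination replicate 2, with a median log2 difference of 1.55. Cxcl1, which draws neutrophils, lies at chr5:90891241-90893115 and rose from 9.55, 8.39 and 3.62 CPM to 73.4, 61.2 and 109 CPM (log2 difference 3.49 ± 0.32, adjusted p = 2.08e-05). Cxcl10, an attractant of T cells at chr5:92346638-92348889, rose from 8.47, 11.3 and 7.25 to 51.8, 39.8 and 65.9 CPM (2.51 ± 0.25, adjusted p = 3.65e-05). Ccl5, which attracts T cells and monocytes, rose from 39.6, 51.4 and 47.4 to 139.8, 104 and 105 CPM (1.33 ± 0.20, adjusted p = 0.00125). The groups did not overlap for any of these chemokines, and the fold rises were 11.3, 5.82 and 2.52. Ccl2, a monocyte attractant, was spread more widely, with 61.1, 95.3 and 18.9 CPM in the DMSO and 131, 195 and 279.6 CPM in the combination libraries. Its difference of 1.78 ± 0.54 was not called (adjusted p = 0.056), although the groups did not overlap. Without DMSO replicate 2 it was called (2.35, adjusted p = 0.0398). Cxcl2 was not tested, with 0 CPM in all DMSO libraries and 0, 1.32 and 1.15 CPM in the combination libraries. Of 13 tested cytokine genes 3 rose and 1 fell, 3 and 0 without combination replicate 2. Over all tested genes 3.93% rose and 5.46% fell. The growth factor gene Hbegf rose from 36.9, 25.5 and 32.3 to 64.1, 57.1 and 59.4 CPM (0.94 ± 0.14, adjusted p = 0.00122), Ereg, a further ligand of the EGF receptor family, by 1.07, and Csf1, the macrophage growth factor, by 1.66 (adjusted p = 0.0012 and 0.00374). Inhba, which encodes an activin subunit, fell by 0.65 (adjusted p = 0.0431). Inhba lost its call without combination replicate 1, 2 or 3 or DMSO replicate 1 or 3 and in a fit of the 6 libraries alone (adjusted p 0.0641 to 0.146). Lif and Il15 were not called (2.27 ± 1.12 and -0.11 ± 0.31).

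Survival genes split. Of 18 tested survival genes 4 rose and 2 fell, with a median of 0.21, and without combination replicate 2 the counts were the same. Over all tested genes 3.93% rose and 5.46% fell. Gadd45b, a stress sensor that restrains JNK signalling, had 6.67, 4.94 and 4.38 CPM with DMSO and 39.3, 37.6 and 42.2 CPM with the combination, a log2 difference of 2.91 ± 0.17 (adjusted p = 7.10e-07). Ier3 rose from 209, 245 and 239.7 to 844, 724 and 659 CPM (1.68 ± 0.13, adjusted p = 4.39e-06). Pim1 and Gadd45a were the other members that rose (2.18 and 1.59, adjusted p = 0.00686 and 0.00161). Bcl2l1, the gene for the anti-apoptotic protein Bcl-xL, fell from 49, 52.2 and 64.5 to 30.4, 32.5 and 21.7 CPM (-0.96 ± 0.19, adjusted p = 0.00573). Traf1, an adaptor of TNF receptors, stood at 30.1, 26.9 and 28.5 CPM with DMSO, 64.3, 66.3 and 62.8 CPM with TNF alone and 20.1, 21.2 and 19.6 CPM with the combination, so the combination libraries lay below and the TNF libraries above all DMSO libraries. Its fall by 0.49 was called (adjusted p = 0.0286). Traf1 lost its call without combination replicate 1, 2 or 3 or DMSO replicate 1 or 3 and with no filter on low counts or in a fit of the 6 libraries alone (adjusted p 0.0643 to 0.133). Birc2 and Birc3, the ubiquitin ligases cIAP1 and cIAP2, and Cflar, the caspase inhibitor c-FLIP, were not called (0.48 ± 0.19, 0.32 ± 0.35 and 0.13 ± 0.14).

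Of 22 tested death genes 1 rose and 2 fell (1 and 1 without combination replicate 2), near the 3.93% higher and 5.46% lower of all tested genes, and their median was -0.11. Bcl2l11, which encodes the pro-apoptotic protein Bim, rose from 8.11, 6.02 and 8.91 to 26.1, 25.7 and 19.6 CPM (1.65 ± 0.19, adjusted p = 1.37e-04), and Bok, another pro-apoptotic Bcl-2 relative, fell from 44, 56.9 and 48.5 to 29.5, 27.6 and 25.3 CPM (-0.86 ± 0.14, adjusted p = 0.00202). Casp8, the initiator caspase of death receptors, fell by 0.55 (adjusted p = 0.0486). Casp8 lost its call without combination replicate 1, 2 or 3 or DMSO replicate 1, 2 or 3 and with no filter on low counts or in a fit of the 6 libraries alone (adjusted p 0.0504 to 0.186). Fas, a death receptor, had 1.08, 1.98 and 1.21 CPM with DMSO, 31.6, 15.9 and 15.3 CPM with TNF alone and 0.813, 2.11 and 3.45 CPM with the combination. The TNF libraries lay far above both other groups, which overlapped each other. The combination differed from TNF alone by -3.35 ± 0.41 (adjusted p = 2.63e-04) while the difference from DMSO was not called (0.45 ± 0.50, adjusted p = 0.646). Of 18 tested adhesion genes 2 rose, and 1 without combination replicate 2. Vcam1, a leukocyte adhesion molecule, rose from 108, 119 and 129.7 to 382, 292 and 335 CPM (1.502 ± 0.12, adjusted p = 5.79e-06). Icam1 was near 0, at 0, 0.0987 and 0 CPM with DMSO and 0.406, 1.71 and 0.383 CPM with the combination, the highest value being that of replicate 2. It was called (adjusted p = 0.0382), but with 1 count in all DMSO libraries together its fitted difference of 3.86 ± 1.08 depends on the prior count. Icam1 lost its call without combination replicate 2 or DMSO replicate 1, 2 or 3 (adjusted p 0.0811 to 0.22).

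**Figure D3:**
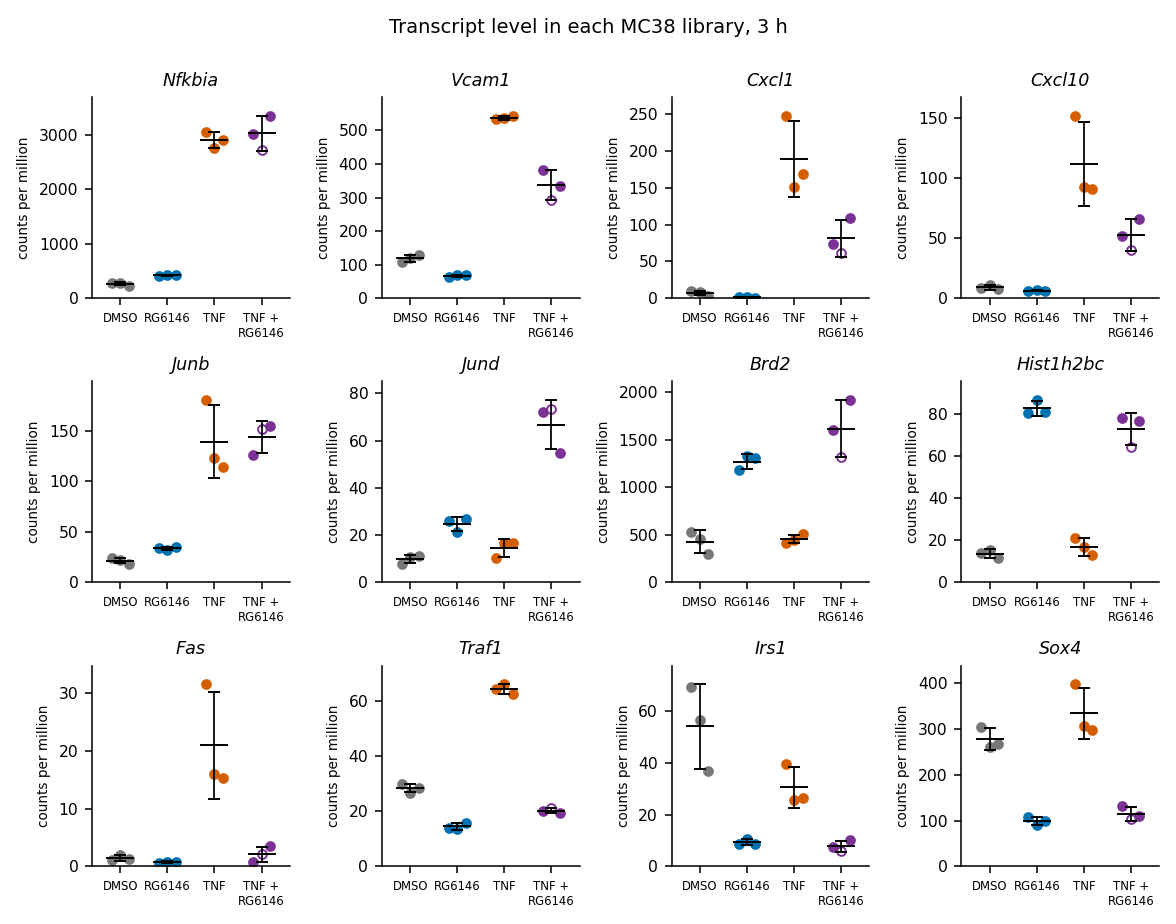
Level of 12 genes in each of the 12 MC38 libraries, in CPM from 0, by treatment. Points are libraries, the black bar is the mean ± SD of 3 libraries, and the open circle is combination replicate 2. Nfkbia and Junb are high with TNF and with the combination, Jund is highest with the combination, Fas and Traf1 are raised with TNF alone, and Irs1 and Sox4 are low with RG6146 and with the combination.

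Immediate early genes rose in many cases. These genes encode short-lived transcription factors made within minutes to hours of a stimulus. Of 26 tested members 14 rose and 1 fell, 13 and 0 without combination replicate 2, with a median log2 difference of 0.75. All tested genes together gave 3.93% higher and 5.46% lower, and 2.37% and 3.35% without that library. Junb, at chr8:84974484-84978718, rose from 24, 21.7 and 18.6 to 126, 152 and 155 CPM (2.75 ± 0.18, adjusted p = 1.75e-06). Jund, a further Jun family gene at chr8:70698949-70700616, rose from 7.75, 10.6 and 11.2 to 72.2, 73.5 and 54.6 CPM (2.75 ± 0.22, adjusted p = 4.48e-06). Both genes had no overlap between groups, and Jund was also higher with the combination than with TNF alone (2.19 ± 0.21, adjusted p = 2.95e-05) and than with RG6146 alone (1.44 ± 0.20, adjusted p = 0.0037). Ier5 rose from 275, 296 and 263 to 1412, 1252 and 1391 CPM (2.28 ± 0.14, adjusted p = 8.09e-07), Csrnp1 by 2.55 (adjusted p = 3.72e-05) and the zinc finger gene Egr1 by 2.50 (adjusted p = 6.46e-06). Fos, the partner of Jun proteins in AP-1, was at 0.540, 0.296 and 0 CPM with DMSO and 3.25, 9.61 and 2.49 CPM with the combination, highest in replicate 2. Its difference was 4.19 ± 0.69, and 3.35 without that library (adjusted p = 0.00187 and 0.00661). Klf2 (1.67 ± 0.25, adjusted p = 0.001) and Atf3 (3.64 ± 0.58, adjusted p = 0.00157) also rose. Fosl2 fell by 0.51 (adjusted p = 0.0261). Fosl2 lost its call without combination replicate 1, 2 or 3 or DMSO replicate 1 or 2 (adjusted p 0.0587 to 0.106).

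Feedback regulators of MAP kinases rose in part, 5 of 17 tested genes, with 1 lower (4 and 1 without combination replicate 2). The shares over all tested genes were 3.93% higher and 5.46% lower. Dusp8, a phosphatase of JNK and p38, rose from 0.540, 0.296 and 0.302 to 2.168, 2.90 and 2.11 CPM (2.68 ± 0.46, adjusted p = 0.00255), and Dusp1, another such phosphatase, from 9.91, 7.998 and 6.64 to 17.1, 23.8 and 21.1 CPM (1.34 ± 0.24, adjusted p = 0.00294). Etv1, a transcription factor downstream of ERK, fell by 1.05 (adjusted p = 0.00144). Of 15 genes of mRNA decay 2 rose, and 1 without combination replicate 2. Zfp36, which encodes tristetraprolin, a protein that destabilises cytokine mRNAs, went from 1.44, 1.68 and 2.42 to 12.6, 11.4 and 15.9 CPM (2.83 ± 0.32, adjusted p = 1.13e-04).

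Genes that BET inhibitors are known to raise were higher with the combination. Of 10 tested members of that list 7 rose and none fell, 6 without combination replicate 2, with a median of 1.39. Among all tested genes 3.93% rose and 5.46% fell. Hist1h2bc, a histone H2B gene with a polyadenylated form, rose from 13.9, 15.4 and 11.3 to 77.8, 64.2 and 76.3 CPM (2.42 ± 0.18, adjusted p = 3.52e-06), the linker histone gene Hist1h1c from 37.5, 32 and 38.2 to 115, 104 and 128 CPM (1.69 ± 0.13, adjusted p = 3.53e-06) and Hist3h2a from 52.4, 53 and 51.4 to 214, 174 and 205 CPM (1.92 ± 0.15, adjusted p = 4.89e-06). With RG6146 alone Hist1h2bc was at 80.3, 86.6 and 80.6 CPM, and the combination differed from RG6146 by -0.18 ± 0.16 in it, 0.00 ± 0.12 in Hist1h1c and -0.19 ± 0.15 in Hist3h2a, none of them called. Over the whole histone family 9 of 32 tested genes rose and 1 fell, with a median of -0.30. Oligo-dT priming reaches only polyadenylated histone transcripts, and copies of near-identical sequence may share reads. Hexim1, an inhibitor of P-TEFb and a common marker of BET inhibition, rose from 47.9, 33.2 and 29.1 to 68.4, 66.9 and 67.5 CPM (0.88 ± 0.18, adjusted p = 0.00693). Txnip (0.78 ± 0.41), Serpini1 (0.33 ± 0.31) and Hist1h1e (0.14 ± 0.46) were not called.

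Brd2, a BET protein gene at chr17:34112023-34122634 in GENCODE vM21, rose. It had 529, 458 and 299 CPM with DMSO and 1604, 1319 and 1919 CPM with the combination (1.91 ± 0.19, adjusted p = 3.72e-05). Brd3 was not called (-0.07 ± 0.12), nor was Cdk9, the kinase subunit of P-TEFb (0.15 ± 0.24). Over all tested genes 3.93% rose and 5.46% fell. In the list of 27 BET and P-TEFb genes 3 rose and 1 fell, 2 and 1 without combination replicate 2. Ccnt1, the cyclin of P-TEFb, and Ell2, an elongation factor, were the others that rose (0.67 and 0.70), and Hexim2 fell by 1.53. Ccnt1 lost its call without combination replicate 2 or 3 or DMSO replicate 2 and in a fit of the 6 libraries alone (adjusted p 0.0529 to 0.0644). Ell2 lost its call without combination replicate 1 or DMSO replicate 1 (adjusted p 0.0588 to 0.0732). Hexim2 lost its call without combination replicate 1 or 3 or DMSO replicate 1 or 2 and in a fit of the 6 libraries alone (adjusted p 0.051 to 0.143). Rn7sk, the small RNA that holds P-TEFb inactive, was counted at 2.16, 0.987 and 1.21 CPM with DMSO, 2.90, 8.57 and 9.56 CPM with TNF, 2.45, 2.90 and 2.21 CPM with RG6146 and 16.9, 10.9 and 11.3 CPM with the combination (3.23 ± 0.42, adjusted p = 4.19e-04). Its transcript has no poly(A) tail and has near-identical copies in the genome, so its value is uncertain.

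Developmental transcription factors fell in many cases and rose in none. In a list of homeobox, SOX and RUNX genes 14 of 27 tested members fell and none rose, 10 without combination replicate 2, with a median of -0.79. Over all tested genes 5.46% fell and 3.93% rose. Sox4 fell from 305, 261 and 266 to 132, 104 and 109.8 CPM (-1.27 ± 0.15, adjusted p = 1.25e-04) and Runx1t1, a corepressor gene, from 26.9, 30.5 and 33.2 to 6.23, 5.53 and 4.60 CPM (-2.46 ± 0.23, adjusted p = 2.40e-05). Meis1, a cofactor of Hox proteins, fell by 1.30 (adjusted p = 0.00144) and Runx1 by 0.99 (adjusted p = 0.0104). Runx1 lost its call without combination replicate 3 (adjusted p = 0.051). Prdm1, which encodes the repressor Blimp-1, had 10.8, 9.08 and 9.51 CPM with DMSO, 28.7, 17.5 and 22.6 CPM with TNF, 1.94, 1.69 and 1.43 CPM with RG6146 and 2.85, 6.32 and 3.07 CPM with the combination. The combination libraries lay between those of RG6146 and DMSO (-1.23 ± 0.29 from DMSO, adjusted p = 0.0161). Prdm1 lost its call without combination replicate 1 or 3 and in a fit of the 6 libraries alone (adjusted p 0.0567 to 0.0782).

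Genes of the Hox clusters, which set position along the body axis, were grouped after their values were seen. Of 24 tested Hox genes 18 were lower and none higher, and 23 had a negative difference. Over all tested genes 5.46% were lower. Some of these Hox genes also belong to the list of homeobox, SOX and RUNX genes above, so the falls of both sets are in part the same. The median log2 difference was -1.11 with all libraries and -1.05 without combination replicate 2, when 7 were called, and -1.03 without both replicate 2 libraries, when 5 were called. Hoxa7 fell from 101, 117 and 99.97 to 64.9, 50.4 and 59.2 CPM (-0.87 ± 0.17, adjusted p = 0.00475), Hoxa4 from 13.7, 15.9 and 9.82 to 4.74, 4.21 and 5.37 CPM (-1.47 ± 0.24, adjusted p = 0.00203) and Hoxa10 from 26.5, 19.6 and 38.1 to 11.4, 10.5 and 10.2 CPM (-1.38 ± 0.24, adjusted p = 0.00304). The medians with single agents were -1.005 for RG6146 and -0.04 for TNF.

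**Figure D4:**
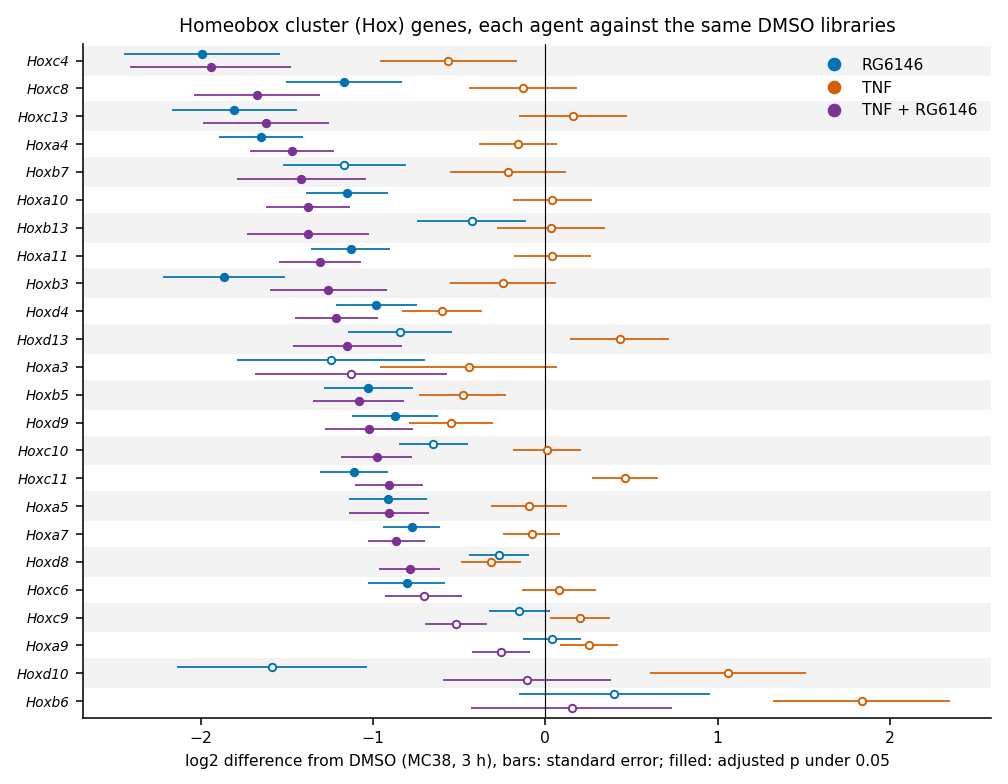
Log2 difference from DMSO of 24 tested Hox genes with RG6146, TNF or the combination, with bars of 1 SE and filled symbols for an adjusted p under 0.05. Combination values lie below 0 for 23 of the 24 genes, and TNF values scatter around 0.

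Irs1, the adaptor of insulin and IGF receptors, had the largest decrease of the genes named here for their size of change. The gene, at chr1:82233101-82291416, fell from 69.2, 56.5 and 36.7 to 7.32, 5.92 and 10.2 CPM (-2.81 ± 0.27, adjusted p = 2.93e-05). Gas1, a membrane protein of Hedgehog signalling, fell from 86, 59.4 and 85.2 to 10.7, 8.69 and 14.2 CPM (-2.79 ± 0.25, adjusted p = 1.34e-05), and the pseudokinase gene Trib2 from 10.4, 16.4 and 13 to 2.168, 2.24 and 2.30 CPM (-2.57 ± 0.25, adjusted p = 2.96e-05). No combination library reached the lowest DMSO library for any of these. Cd300lb, an activating receptor of myeloid cells, fell from 19.6, 22.1 and 19.8 to 3.25, 3.69 and 3.64 CPM (-2.54 ± 0.17, adjusted p = 1.97e-06), in a comparison in which replicate 2, with its leukocyte transcripts, was as low as the others. Beside Runx1t1, given above, the other decreases named for their size were Bhlhe41 (-2.50), Medag (-2.47), Bsn (-2.34), Pdgfrb (-2.28), Dio2 (-2.24), Kcnk2 (-2.23) and Npnt (-2.167), with adjusted p from 4.21e-04 to 0.00521. Of 19 tested receptor tyrosine kinase genes 4 fell and 1 rose, 3 and 1 without combination replicate 2. Over all tested genes 5.46% fell and 3.93% rose. Pdgfrb, a receptor of platelet-derived growth factor, fell from 20.4, 21.7 and 11.5 to 1.76, 5.26 and 4.03 CPM and Pdgfra, its relative, from 53.3, 40.0 and 37.8 to 16.1, 17.2 and 19.9 CPM (-1.30 ± 0.24, adjusted p = 0.00355), while Mertk, a receptor for uptake of dying cells, rose from 2.16, 3.26 and 4.68 to 10.0, 8.03 and 9.20 CPM (1.42 ± 0.27, adjusted p = 0.00433).

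In the list of TGF-beta and BMP genes 2 of 21 tested genes fell and 1 rose (3 and 0 without combination replicate 2), beside 5.46% of all tested genes lower and 3.93% higher, with a median of -0.26. Grem1, a secreted BMP antagonist, fell from 176, 97.7 and 174 to 47.7, 40.1 and 54.4 CPM (-1.65 ± 0.22, adjusted p = 4.66e-04). Bmp2 had 13, 10.5 and 13.3 CPM with DMSO, 28.2, 25.3 and 28.1 CPM with TNF, 2.32, 2.78 and 4.03 CPM with RG6146 and 6.10, 6.71 and 4.98 CPM with the combination. It was thus highest with TNF and lowest with RG6146, with the combination between RG6146 and DMSO (-1.03 ± 0.21, adjusted p = 0.00686). Ski, a repressor of SMAD signalling, was the member that rose (0.43, adjusted p = 0.0367). Ski lost its call without combination replicate 1, 2 or 3 or DMSO replicate 1, 2 or 3 and with library totals alone, with no filter on low counts or in a fit of the 6 libraries alone (adjusted p 0.0514 to 0.18). Of 18 YAP target genes 2 fell and 1 rose, 1 and 1 without combination replicate 2. Ankrd1, like Bmp2, was higher with TNF and lower with the combination than with DMSO. It had 203, 151 and 173 CPM with DMSO, 362, 266 and 277 CPM with TNF and 87.1, 88.8 and 93.3 CPM with the combination (-0.97 ± 0.16, adjusted p = 0.00204). Ccn1, a matricellular protein gene, rose from 1.62, 3.16 and 2.42 to 15.7, 13.8 and 34.7 CPM (3.08 ± 0.72, adjusted p = 0.0158). Ccn1 lost its call without combination replicate 3 or DMSO replicate 1 or 2 (adjusted p 0.0506 to 0.0638).

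Some genes of the stress responses of translation and the endoplasmic reticulum rose. Of 20 integrated stress response genes 5 rose and 2 fell, also without combination replicate 2. The median of that list was 0.004, with 10 genes above 0. Of 19 genes of the endoplasmic reticulum 5 rose and none fell, 3 of them without combination replicate 2, with a median of 0.34. The shares over all tested genes were 3.93% higher and 5.46% lower. Ddit3, the transcription factor CHOP, rose from 175, 219 and 247 to 590.0, 452 and 452 CPM (1.22 ± 0.15, adjusted p = 2.65e-04), and all RG6146 libraries lay higher still, at 650.5, 692 and 801 CPM. Chac1, a glutathione-degrading enzyme and ATF4 target, rose from 29.7, 42.1 and 40.6 to 119, 89.1 and 110.4 CPM (1.495 ± 0.21, adjusted p = 6.75e-04), and Atf4 itself by 0.74 (adjusted p = 0.00344). Slc7a11, the cystine transporter, fell from 60.9, 52.7 and 52.5 to 31.2, 31.9 and 29.3 CPM (-0.84 ± 0.17, adjusted p = 0.00586), and Stc2 by 0.90 (adjusted p = 0.00444). Hspa5, the chaperone BiP, rose from 2609, 2454 and 2811 to 5190.0, 4749 and 4584 CPM (0.88 ± 0.12, adjusted p = 4.66e-04), and Herpud1, a component of protein degradation at the endoplasmic reticulum, by 0.61 (adjusted p = 0.00328).

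Of 34 tested interferon-stimulated genes 2 rose and 4 fell, 1 and 4 without combination replicate 2, beside 3.93% of all tested genes higher and 5.46% lower. Irf1, a transcription factor induced by interferon and by NF-kB, rose from 257, 243 and 162 to 510.5, 672 and 719 CPM (1.52 ± 0.21, adjusted p = 6.06e-04). Ifit3 was at 18.9, 15.1 and 22.6 CPM with DMSO and 5.69, 13.6 and 4.98 CPM with the combination, where replicate 2 was the highest of the combination libraries (-1.20 ± 0.32, adjusted p = 0.0292). Ifit3 lost its call without combination replicate 1 or 3 or DMSO replicate 1 or 3 and in a fit of the 6 libraries alone (adjusted p 0.0649 to 0.12). None of 19 tested genes of MHC class I presentation was called against DMSO, and 6 were lower with the combination than with TNF alone, a direction called for 7.6% of all tested genes. B2m, the light chain of MHC class I, had 589.7, 663 and 488 CPM with DMSO and 552, 584 and 588 CPM with the combination, groups that overlapped (-0.01 ± 0.13). Of 7 checkpoint ligand genes 2 rose, and 1 without combination replicate 2. Cd274, the gene for the ligand PD-L1, was low, at 0.721, 0.395 and 1.51 CPM with DMSO, 3.38, 2.45 and 2.12 CPM with TNF and 0.813, 1.19 and 0.383 CPM with the combination. The combination overlapped DMSO (-0.01 ± 0.62, adjusted p = 0.997) and lay below all TNF libraries (-1.65 ± 0.46, adjusted p = 0.0346).

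Of 19 p53 target genes 3 rose and 2 fell, also without combination replicate 2, beside 3.93% of all tested genes higher and 5.46% lower. Cdkn1a, the cell cycle inhibitor p21, rose from 18.2, 12.3 and 18.3 to 69.9, 77.3 and 55.6 CPM (2.07 ± 0.18, adjusted p = 1.16e-05), whereas Mdm2 was not called (0.03 ± 0.15), and Phlda3 and Eda2r fell by 0.99 and 0.94 (adjusted p = 0.00513 and 0.00537). Of 37 cell cycle genes 2 fell and none rose (3 and 0 without combination replicate 2), Aurka, a mitotic kinase, by 0.66 and Cdk6 by 0.61 (adjusted p = 0.00755 and 0.0426). Cdk6 lost its call without combination replicate 1 or 3 or DMSO replicate 1, 2 or 3 and in a fit of the 6 libraries alone (adjusted p 0.0745 to 0.155). Myc was at 9.73, 7.31 and 5.89 CPM with DMSO and 6.77, 10.1 and 10.7 CPM with the combination, overlapping ranges (0.27 ± 0.55, adjusted p = 0.822). Mxd1, which encodes a competitor of Myc for its partner Max, rose from 1.80, 2.172 and 0.453 to 5.01, 6.45 and 5.37 CPM (1.87 ± 0.37, adjusted p = 0.00587). Id1 and Id2, whose proteins block helix-loop-helix factors, were not called (-0.44 ± 0.29 and -0.37 ± 0.36). Id2 was at 37.1, 29.2 and 27.6 CPM with DMSO and 13.4, 44.6 and 14 CPM with the combination, and without replicate 2, the one high library, its difference of -1.19 was called (adjusted p = 0.0101). None of 22 glycolysis genes, 13 mitochondrially encoded genes or 77 cytosolic ribosomal protein genes was called with all libraries. NRF2 targets had 3 of 18 members higher and 1 lower, with and without combination replicate 2. Heat shock genes had 1 of 16 higher and 1 lower, and 1 lower without that library. Sterol genes had 2 of 23 higher (1 without it), ribosome biogenesis genes 2 of 32 higher and 1 lower (0 and 1 without it), MYC network genes 1 of 10 higher, and genes of STAT and SOCS signalling 2 of 19 higher (none without it). Over all tested genes these shares were 2.37% higher and 3.35% lower without combination replicate 2.

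Some genes outside these lists rose strongly. Arl6ip1, a protein of the endoplasmic reticulum membrane, had 4.87, 6.81 and 7.85 CPM with DMSO and 23.6, 138 and 24.7 CPM with the combination. Replicate 2 was over 3 times the other 2 libraries, and the log2 difference was 3.25 with it and 1.88 without it, called both ways. Car15, a carbonic anhydrase gene, rose from 1.26, 0.592 and 0.755 to 5.69, 5.66 and 4.79 CPM (2.68 ± 0.37, adjusted p = 6.32e-04). Arl6ip1, Camp, Gm19815, Icam1 and Rn7s1 were the 5 called genes in which replicate 2 exceeded both other combination libraries by over 3 times. In the list of innate sensing and inflammatory effector genes 3 of 16 rose and 2 fell, also without combination replicate 2. The shares over all tested genes were 3.93% higher and 5.46% lower. Gch1, which makes a cofactor of nitric oxide synthase, rose from 1.62, 1.78 and 0.906 to 3.39, 5.79 and 5.56 CPM (1.73 ± 0.31, adjusted p = 0.00343), and Tnfaip2 by 1.03 (adjusted p = 1.50e-04). Adora2b, an adenosine receptor gene, fell from 6.31, 7.01 and 5.44 to 2.44, 3.16 and 2.11 CPM (-1.27 ± 0.24, adjusted p = 0.00422).

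The single agents were set beside the combination in the same fit. They share the DMSO libraries with it, so their values are given side by side and no overlap is counted. TNF alone changed 145 genes (1.09%), 136 higher (1.02%) and 9 lower (0.0678%), and RG6146 alone changed 1098 (8.27%), 447 higher (3.37%) and 651 lower (4.91%). Against RG6146 alone the combination differed in 39 genes (0.294%), 37 of them higher (0.279%) and 2 lower (0.0151%). Without combination replicate 2 it differed in 26 of 13492 genes, 26 higher and 0 lower. Of the genes named here, those that differed by more than 2 on the log2 scale were Cxcl1 (6.19 ± 0.41), Cxcl10 (3.06 ± 0.26), Nfkbia (2.85 ± 0.12), the Schlafen family gene Slfn2 (2.66 ± 0.26), Zfp36 (2.48 ± 0.31), Rn7sk (2.37 ± 0.39), Vcam1 (2.33 ± 0.13), Nfkbie (2.28 ± 0.17) and Junb (2.102 ± 0.18), with adjusted p from 2.32e-08 to 0.0138. Against TNF alone the combination differed in 1500 genes (11.3%), 491 higher (3.7%) and 1009 lower (7.6%). Without combination replicate 2 this count was 751 of 13492, 236 higher and 515 lower. Without TNF replicate 1 the count was 954 of 13523, 332 higher and 622 lower. With all libraries 5 of 6 tested neutrophil and granulocyte markers were called higher than with TNF.

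For Nfkbia and Junb the combination was not told apart from TNF alone. The log2 differences from DMSO were 3.46 for TNF, 0.67 for RG6146 and 3.52 for the combination in Nfkbia, and 2.70, 0.65 and 2.75 in Junb. Their differences from TNF alone were 0.06 ± 0.12 (adjusted p = 0.776) and 0.05 ± 0.17 (adjusted p = 0.881). Other genes stayed above DMSO but below TNF alone. Cxcl1 was at 248, 151 and 169 CPM with TNF (-1.23 ± 0.28 for the combination against TNF, adjusted p = 0.0126), and the differences from TNF were -1.09 ± 0.22 for Cxcl10, -0.68 ± 0.12 for Vcam1 and -0.61 ± 0.15 for Nfkbie (adjusted p = 0.00767, 0.00311 and 0.02). In further genes a rise called with TNF was not called with the combination. Ccl2 stood at 3090.0, 1016 and 869 CPM with TNF, and the combination differed from it by -3.04 ± 0.56 (adjusted p = 0.0038). Lif (-3.60 ± 0.68), Il15 (-2.66 ± 0.28), Traf1 (-1.67 ± 0.13), Birc3 (-1.84 ± 0.33) and Birc2 (-1.20 ± 0.18) were likewise lower than with TNF alone, with adjusted p from 1.02e-05 to 0.00455. TNF replicate 1 was the highest TNF library in Ccl2 and in Lif (30.45, 6.61 and 5.92 CPM), but not in Traf1. Among the MC38 libraries it lay furthest from the others of its group (root mean square log2 distance 0.529). Gene differences without that library are not given here. Cflar, whose log2 difference between TNF and DMSO was not called (0.62, adjusted p = 0.0538), was also lower with the combination than with TNF (-0.49 ± 0.14, adjusted p = 0.0379). By list, 4 of 15 NF-kB inhibitors and 5 of 6 chemokines were lower with the combination than with TNF alone, against 7.6% of all tested genes. Genes that rose with RG6146 alone and not with TNF, such as Brd2 (1.57 and 0.08) and Hist1h2bc (2.60 and 0.30), and genes that fell with it, such as Gas1 (-2.30 and -0.10) and Sox4 (-1.48 and 0.27), differed little between the combination and RG6146, by 0.35 ± 0.19, -0.18 ± 0.16, -0.49 ± 0.25 and 0.21 ± 0.15, none of them called.

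**Figure D5:**
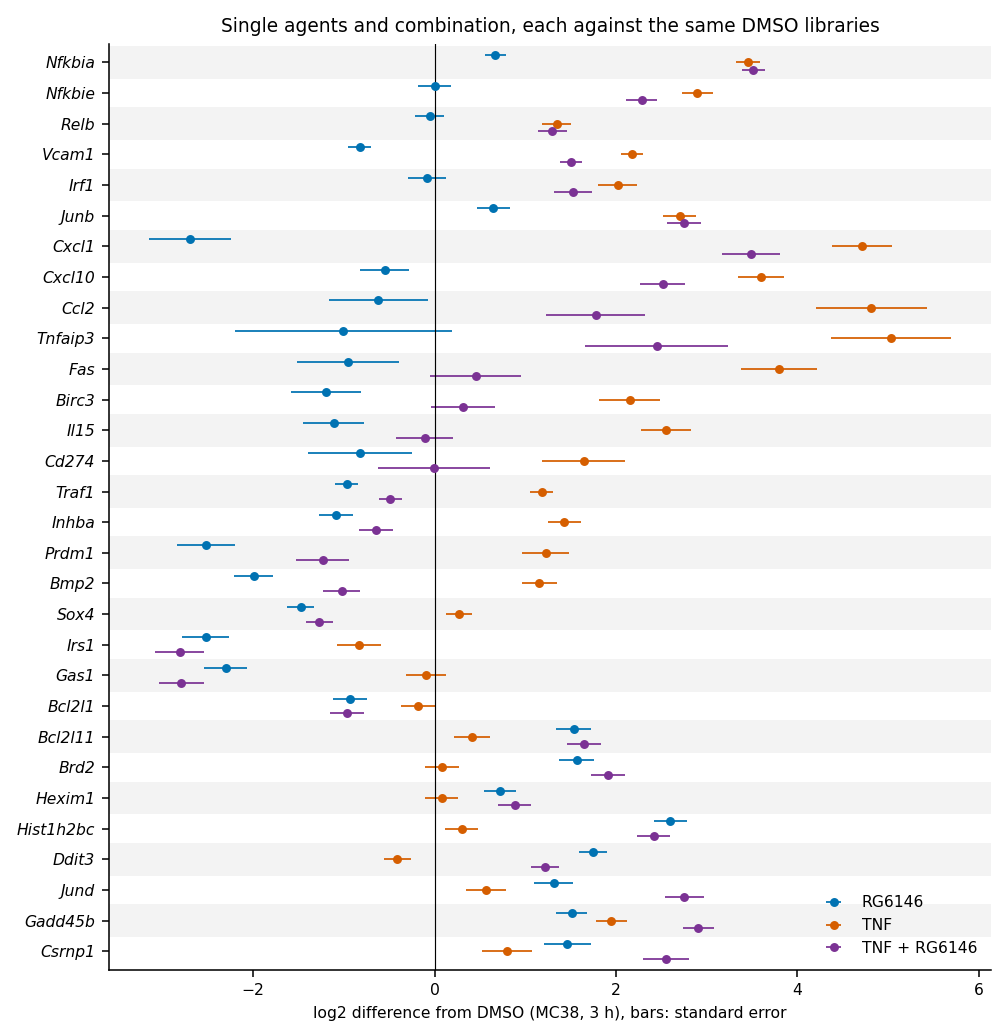
Log2 difference from DMSO, with bars of 1 SE, of 30 genes for RG6146, TNF and the combination. The chemokine genes Cxcl1, Cxcl10 and Ccl2 lie to the right with TNF and less so with the combination. Traf1 lies to the right with TNF and to the left with the combination. Hist1h2bc and Brd2 lie to the right, and Irs1, Gas1 and Sox4 to the left, with RG6146 and with the combination.

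Whether the response to both agents departed from the sum of the single responses was tested by an interaction term. No gene was called (0.0%) by edgeR, with 772 of 13272 at an unadjusted p under 0.05, and DESeq2 called 3. On simulated counts this test recovered 35% of genes with a true interaction of 1 on the log2 scale and 92% of those with 2. The simulation changed only a small set of genes above a minimum mean level. These shares therefore do not cover genes of low counts.

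The same treatment of E0771 cells changed 2015 of 12541 tested genes (16.1%), 839 higher (6.69%) and 1176 lower (9.38%). Replicates of DMSO and the combination lay closer together in E0771 (root mean square log2 distance 0.224 to 0.272) than in MC38 (0.334 to 0.474). How far this spread bears on the numbers of genes called and shared was not tested. Among the 11786 genes tested in both lines, 260 rose in both, which is 52.7% of the 493 higher in MC38 and 33.0% of the 787 higher in E0771. A further 283 fell in both, which is 53.6% of the 528 lower in MC38 and 26.1% of the 1083 lower in E0771. Rnf122, Sh2d5, Slfn2 and Zfp292 were called in opposite directions. In MC38, Rnf122 lost its call without combination replicate 1 or 2 or DMSO replicate 1 or 2 (adjusted p 0.0694 to 0.11). In MC38, Zfp292 lost its call without combination replicate 1, 2 or 3 or DMSO replicate 2 and with library totals alone, with no filter on low counts or in a fit of the 6 libraries alone (adjusted p 0.052 to 0.102). Nfkbia differed from DMSO by 4.55 ± 0.09 in E0771 and 3.52 ± 0.13 in MC38, Cxcl1 by 5.10 ± 0.32 and 3.49 ± 0.32, and Hist1h2bc by 2.54 ± 0.11 and 2.42 ± 0.18. A test of the difference between lines called 97 of 14058 genes (0.69%).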

How the data were processed

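Cells, treatments and library preparation (500 ng of RNA, QuantSeq 3′ kit, single 75 bp reads on a NextSeq 500) follow the labels' protocols. Per the submitters' processing notes, reads went through bcl2fastq 2.17.1.14, cutadapt 1.14, HISAT2 2.1.0 on mm10 and featureCounts of Subread 1.5.2. Annotation release, strand setting, handling of multimapping reads and molecular barcodes: not given in the sources used here. The deposited values are raw counts per gene, per the labels, and all columns were used. GENCODE vM21 placed and named 42462 of 43629 genes.

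The 12 MC38 libraries were fitted in 4 groups in R 4.3.3 with edgeR 4.0.16 (filterByExpr, TMM, glmQLFit and glmQLFTest, two-sided, prior count 0.125), with Benjamini-Hochberg adjustment over 13272 genes. SE is the log2 difference divided by the root of F. CPM are TMM-scaled. The difference between lines came from 1 fit of all 24 libraries. On simulated counts for 13118 genes, the combination against DMSO recovered 69% of 2-fold and 99% of 4-fold changes. Only a small set of these genes, drawn above a minimum mean CPM, was changed, and no other treatment effect was simulated. The shares do not cover genes of low counts. Alternatives were DESeq2 1.42.0, library totals, no filter, a replicate block, the 6 libraries alone and leaving libraries out. Figures used Python 3.11.15 and matplotlib 3.10.9.

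The rule named the 12 largest called increases and decreases with a mean count of at least 20, no overlap between groups and a call kept without combination replicate 2, in each of 33 pathway lists the 2 called members of lowest p per direction, and a fixed set of TNF and BET genes. Other genes named were chosen after their values were seen. Members and lists were chosen with earlier results of these data known.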

Additional observations from a re-analysis of the deposited data

Results flagged for a closer look

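The response to the combination differed between the lines in 12 genes named by size, by a test of the difference itself (edgeR, E0771 minus MC38, on the log2 scale, 24 libraries). Each value is followed by its adjusted p with all libraries and without MC38 combination replicate 2.

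Of the 6 genes with a lower response in E0771, 4 were near 0 in MC38 outside that replicate. The difference was -7.11 (adjusted p = 0.0199, and 0.26 without that library) for Zbtb7c, which had no count in any MC38 DMSO library, so this fitted value depends on the prior count and is no bound. It was -5.30 (adjusted p = 0.0491, and 0.969 without that library) for Vsir, a checkpoint receptor of leukocytes. Pstpip1 and Arhgap30, genes of leukocyte cytoskeleton control, gave -4.54 (adjusted p = 0.0204, and 0.135 without that library) and -4.31 (adjusted p = 0.0469, and 0.62 without that library). The MC38 combination libraries held 0.271, 2.24 and 0 CPM of Zbtb7c, 0.136, 6.58 and 0 CPM of Vsir, 0.677, 6.84 and 0.958 CPM of Pstpip1 and 1.22, 15 and 0 CPM of Arhgap30, where the second value of each is replicate 2, the library with leukocyte transcripts. None of these 4 differences was called without that library. Rn7sk responded by 0.81 in E0771 and 3.23 in MC38, a difference of -2.45 (adjusted p = 0.019, and 0.0224 without that library). Sh2d5, which encodes an SH2 domain protein, responded by -0.66 in E0771 and 1.70 in MC38, a difference of -2.38 (adjusted p = 2.65e-04, and 0.00131 without that library), and was called in opposite directions in the lines.

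The 6 genes with a higher response in E0771 were led by Hes6, which encodes a repressor of the Hairy family, with 5.81 (adjusted p = 0.00824, and 0.0142 without that library). Hes6 was at 0 in all E0771 DMSO libraries and at 0.384, 0.750 and 0.951 CPM (2, 4 and 5 counts) in the E0771 combination libraries. The fitted value of 5.81 therefore rests on few counts, depends on the prior count and is no bound. Rnf122, a ubiquitin ligase gene, responded by 1.59 in E0771 and -1.19 in MC38, a difference of 2.75 (adjusted p = 0.00366, and 0.0118 without that library). Cebpd, a transcription factor gene of the acute phase response, differed from DMSO by 1.34 in E0771 and -0.97 in MC38, a difference of 2.29 (adjusted p = 0.0228, and 0.0144 without that library). In MC38 alone the change of Cebpd was not called with all libraries (adjusted p = 0.0537) and was called without combination replicate 2 (adjusted p = 0.0423). Tubb3, a tubulin gene, differed from DMSO by 2.72 in E0771 and 0.60 in MC38, a difference of 2.08 (adjusted p = 0.00216, and 0.00566 without that library). Its change in MC38 alone was not called (adjusted p = 0.167). Hspa2, a heat shock gene, differed by 2.27 (adjusted p = 0.0287, and 0.0931 without that library) and Cdc42ep2, an effector of the GTPase Cdc42, by 2.22 (adjusted p = 0.0163, and 0.0541 without that library), and both lost their call without MC38 combination replicate 2.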

How the results depend on the processing

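The count of 1247 genes called against DMSO was 1475 with DESeq2 (752 higher, 723 lower), 1416 with library totals, 1803 with no filter and 735 in a fit of the 6 libraries alone. Leaving out 1 library gave 739 to 1097, with 962, 877 and 1097 without DMSO replicate 1, 2 or 3 and 739, 772 and 748 without combination replicate 1, 2 or 3. Leaving out combination replicate 2 with DMSO replicate 2 gave 592, and with DMSO replicate 3 gave 695, both chosen after seeing the data. The count against TNF alone (1500) was 2394 with no filter, 951 in a fit of its 6 libraries and 751 to 1195 without 1 library. The count against RG6146 alone (39) was 67 with DESeq2, 355 with no filter, 62 in a fit of its 6 libraries and 18 to 27 without 1 library. The interaction (0 genes) gave 3 with DESeq2, 211 with no filter and 0 without any 1 library. The difference between lines (97 genes) gave 204 with DESeq2, 421 with no filter, 40 without both MC38 replicate 2 libraries and 47 to 195 without 1 library. Where fewer libraries or more genes entered, fewer samples or a wider adjustment are part of the alternative itself, and any further cause was not tested. Of 104 named genes tested, 93 were called, none reversed under any alternative, and DESeq2 lost 1, library totals 6, no filter 5, the replicate block 10 (Traf1, Casp8, Ifit3, Cd47, Socs7, Lifr, Odc1, Hexim2, Hsp90aa1 and Ski), the 6 libraries alone 21, leaving out 1 library 13 to 24 and leaving out both replicate 2 libraries 24, Hexim1, Eda2r and Ccn1 among them. Tnfaip3 and Ccl2 were called with DESeq2, with no filter and with the replicate block, and Ccl2 without DMSO replicate 2, while Zfp292, named outside the rule, lost its call with the block (adjusted p = 0.0505).

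Replicate numbers did not pair the DMSO and combination libraries. Deviations of same-numbered libraries of these groups correlated at -0.56 to 0.12, and 0 of 3 correlated best with their own number. Over all MC38 groups 6 of 18 same-number pairs correlated above 0.1, and replicate 1 of DMSO, RG6146 and TNF did so at 0.33 to 0.42. Combination replicates 1 and 3 correlated at -0.56 to -0.11 with the same numbers of the other groups. With the replicate block 980 genes were called against DMSO, 1195 against TNF, 32 against RG6146, 0 in the interaction and 93 between lines. Precision is set by 3 libraries a group and by depth, so genes near 1 CPM rest on few counts.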
